A study of Mus musculus with 6 samples.

Results

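The 10 genes described here encode enzymes that turn cholesterol into conjugated bile acids in the liver: Cyp7a1, Cyp8b1, Cyp27a1, Cyp7b1, Cyp39a1, Hsd3b7, Akr1d1, Amacr, Acox2 and Baat. They were chosen by name as steps of the classic and alternative pathways and of conjugation. Each gene was matched through its RefSeq accession to exactly 1 probe, giving 10 probes of 55681 on the array, and each of the 10 probes was well above background in both channels of all 6 arrays. The question was how these transcripts differ between liver of Fra-1hep mice and of wild-type mice.

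Fra-1hep mice overexpress Fra-1, a subunit of AP-1 transcription factors and the product of Fosl1, with expression restricted to hepatocytes, on the C57BL/6J background. The Fra-1hep samples were liver RNA of 5 single mice, each labelled with Cy5, and 1 Fra-1hep pool labelled with Cy3. Every array set them against liver RNA of a C57BL/6J wild-type pool in the other dye, which the design text describes as 5 chow-fed mice. All animals were 26 to 28 weeks old and untreated. The promoter that drives the transgene, the sex of the mice, the time of day of sampling and the number of mice in the Fra-1hep pool are not given in the sources used here. Whether that pool holds RNA of the 5 single mice is not stated by the labels. The design text speaks of 6 single mutant mice, whereas the sample labels give 5 and the array of pools with exchanged dyes, and the labels were followed.

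The share of probes well above background was 48.5 to 58.9% for Fra-1hep RNA and 45 to 50.7% for wild-type RNA. The probe for Fosl1 did not rise above background with either RNA on any of the 6 arrays, so the overexpression itself could not be checked. The arrays of mice 2 and 3 differed from each other by 1.03 times the noise between replicate spots, against 1.80 to 2.25 times for other pairs of mice. They were counted as 1 sample, which leaves n = 4 Fra-1hep mouse samples, and mice 2 and 3 below are therefore not independent. The labels do not say whether the mice came from separate litters. All ratios below are log2 of Fra-1hep over wild type, turned to that direction on the array with exchanged dyes, and the spread between 4 samples and 1 wild-type pool limits their precision.

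Bile acids are made from cholesterol in hepatocytes by a chain of hydroxylases, ring-modifying enzymes and peroxisomal side-chain enzymes. In the classic pathway Cyp7a1 adds the first hydroxyl group and sets the rate, and Cyp8b1 directs intermediates towards cholic acid. The alternative pathway starts with side-chain hydroxylation by Cyp27a1, after which Cyp7b1 hydroxylates the oxysterol ring. Hsd3b7 and Akr1d1 then rebuild the ring, Amacr and Acox2 act in side-chain shortening in peroxisomes, and Baat joins the acid to taurine or glycine. Bile acids returning to the liver repress this synthesis through the receptor FXR and its target SHP.

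Of the 10 enzymes, 3 fell and 1 rose in Fra-1hep liver, and 6 did not pass the test. Cyp8b1 (1.80-fold lower), Cyp7b1 (1.70-fold) and Hsd3b7 (1.65-fold) were lower on all 6 arrays, while Acox2 was 1.24-fold higher on all 6. The 6 arrays are not 6 independent samples, since mice 2 and 3 count as 1 and the pool may share mice with them. Cyp7a1, the first and rate-setting enzyme of the classic pathway, did not pass, with a ratio of 0.20. Over all 30110 probes tested with limma, 11.6% passed the threshold of 0.05 on the adjusted p, made up of 5.52% that were higher and 6.04% that were lower in Fra-1hep liver. Over the 13955 tested genes with a symbol, each by its brightest probe, 7.83% were higher and 8.23% lower. The median fitted ratio of the 10 enzymes, which went both ways, was -0.01, against 0.01 over all tested probes. By array the median of the 10 was -0.03, -0.19, -0.13, -0.17 and -0.25 in mice 1 to 5 and 0.03 in the Fra-1hep pool.

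**Figure D1:**
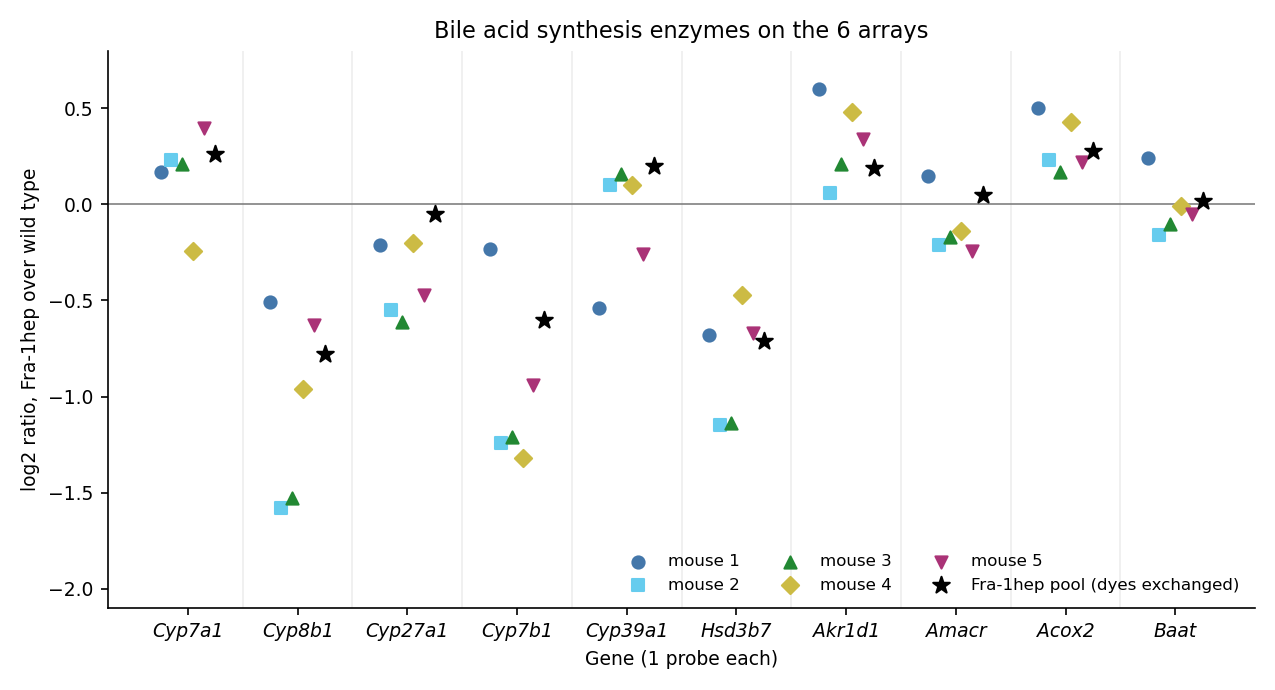
Log2 ratio of Fra-1hep over wild type (vertical axis) for the 10 enzymes (horizontal axis), with 1 point for each of the 5 mouse arrays and a star for the array of pools with exchanged dyes. Cyp8b1, Cyp7b1 and Hsd3b7 lie below 0 on all 6 arrays and Acox2 above 0 on all 6, and mice 2 and 3 lie within 0.15 of each other for every gene.

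The classic pathway split between its first enzyme and its branch enzyme. Cyp8b1 (NM_010012, probe A_51_P266618), the sterol hydroxylase needed for cholic acid, had ratios of -0.51 in mouse 1, -1.58 in mouse 2, -1.53 in mouse 3, -0.96 in mouse 4 and -0.63 in mouse 5. The Fra-1hep pool gave -0.78, inside the range of the mice. Mice 2 and 3 were lowest and mouse 1 was least affected. The mean over the 4 samples was -0.91 ± 0.47 (SD, n = 4), and the fit gave -0.85 (SE 0.17, adjusted p = 0.0156). In the scanner's processed signal, in arbitrary units, Cyp8b1 lay between 562 and 1103 for Fra-1hep RNA and between 1416 and 1938 for wild-type RNA. These ranges do not overlap, but the second is 1 pool read on every array and holds no spread between wild-type mice. How many of all probes show no overlap was not counted.

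Cyp7a1 (NM_007824, probe A_52_P84027), which encodes cholesterol hydroxylase, had ratios of 0.17, 0.23, 0.21, -0.24 and 0.40 in mice 1 to 5 and 0.26 in the Fra-1hep pool. Mouse 4 was the one sample below 0. Its fitted ratio was 0.20 (SE 0.11, adjusted p = 0.298), with a 95% interval from -0.05 to 0.44. A fall of the size seen for Cyp8b1 lies outside that interval. The interval holds no error of the 1 wild-type pool or of the array with exchanged dyes. The processed signals of 2732 to 4402 for Fra-1hep RNA and 2704 to 3710 for wild-type RNA overlapped. Set against Cyp7a1 on the same array, the log2 ratio of Cyp8b1 differed by -0.69 in mouse 1, -1.81 in mouse 2, -1.75 in mouse 3, -0.72 in mouse 4, -1.02 in mouse 5 and -1.04 in the pool. This pair was chosen after its values were seen, so the difference is a description.

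In the alternative pathway, Cyp7b1 fell, while Cyp27a1 and Cyp39a1 did not pass. Cyp7b1 (NM_007825, probe A_51_P461429), the oxysterol hydroxylase, had ratios of -0.23 in mouse 1, -1.24 in mouse 2, -1.21 in mouse 3, -1.32 in mouse 4 and -0.94 in mouse 5, with -0.60 in the Fra-1hep pool. Mouse 1 stood closest to wild type, and the pool lay between mouse 1 and the rest. The mean of the 4 samples was -0.93 ± 0.49 (SD, n = 4), the widest spread among the 10 enzymes together with Cyp8b1. The fit gave -0.76 (SE 0.18, adjusted p = 0.0283). The processed signals were 5165 to 11182 for Fra-1hep RNA and 11199 to 14987 for wild-type RNA, with mouse 1 at the top of the first range. Without mouse 5 the ratio was again -0.76, but the call ended (adjusted p = 0.0549).

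Cyp27a1 (NM_024264, probe A_51_P112817), the mitochondrial sterol hydroxylase of the alternative pathway, was spotted 10 times on each array. Its mean ratios were -0.21, -0.55, -0.61, -0.20 and -0.47 in mice 1 to 5 and -0.05 in the Fra-1hep pool. The spots of one array had an SD of 0.03 to 0.12, so the mice differed by more than the spots did, and all 6 arrays were below 0. The pool with exchanged dyes stood 0.32 above the mean of the mice. The fit, which carries a term for dye, gave -0.21 (SE 0.09, 95% interval -0.40 to -0.01, adjusted p = 0.177) and did not pass. On the mouse arrays alone, where dye and genotype cannot be told apart, the ratio was -0.37 and passed (adjusted p = 0.0107). Cyp39a1 (NM_018887, probe A_55_P2086143), which hydroxylates a further oxysterol, had ratios of -0.54, 0.10, 0.16, 0.10 and -0.26 in mice 1 to 5 and 0.20 in the pool. Its fitted ratio of 0.03 (SE 0.12, 95% interval -0.25 to 0.31, adjusted p = 0.917) did not pass, and the mice lay on both sides of 0.

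**Figure D2:**
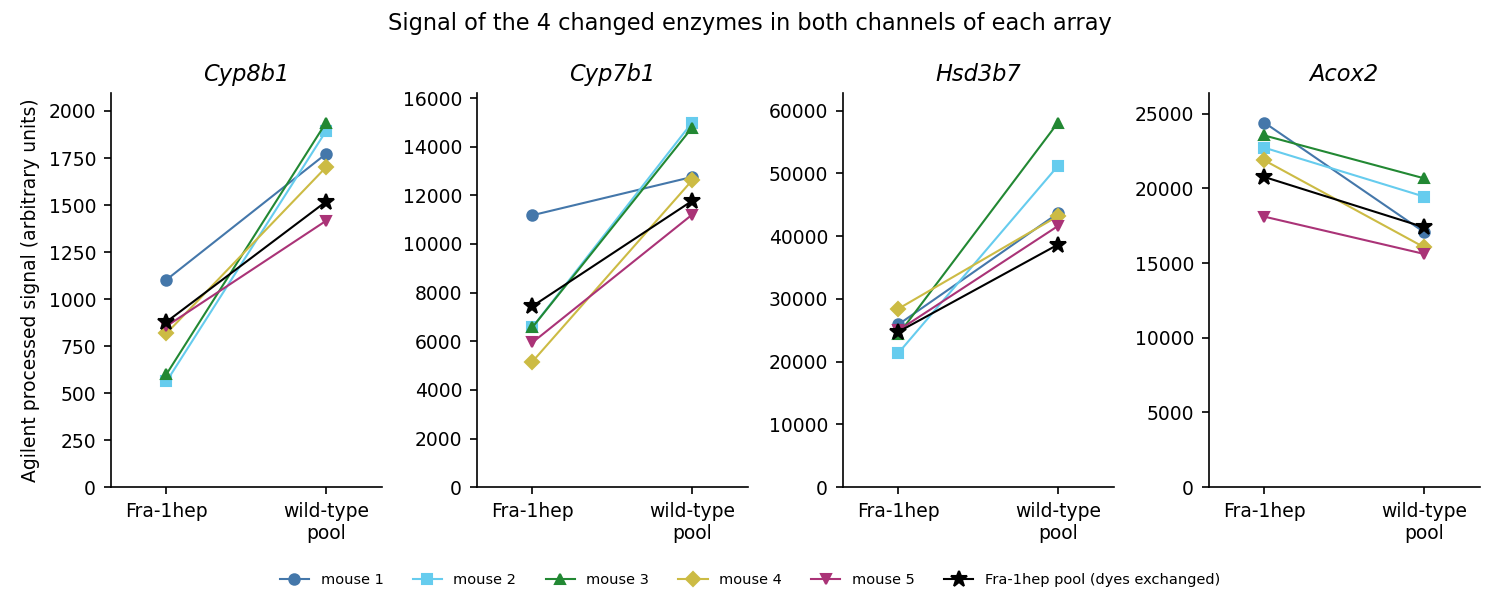
Processed signal of Cyp8b1, Cyp7b1, Hsd3b7 and Acox2 in arbitrary units (vertical axis, from 0) for Fra-1hep RNA and for wild-type RNA, with a line for each array. Every line climbs from Fra-1hep to wild type for the first 3 genes and descends for Acox2, and the line of mouse 1 is the flattest for Cyp7b1.

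Among the enzymes that modify the rings, Hsd3b7 was the most evenly lowered of the 3 that fell. Hsd3b7 (NM_133943, probe A_55_P1982762), the steroid dehydrogenase shared by both pathways, had ratios of -0.68 in mouse 1, -1.15 in mouse 2, -1.14 in mouse 3, -0.47 in mouse 4 and -0.67 in mouse 5. The Fra-1hep pool gave -0.71, within 0.03 of the mean of the mice. The mean was -0.74 ± 0.29 (SD, n = 4) and the fitted ratio -0.72 (SE 0.11, adjusted p = 0.0056). Its processed signals were 21386 to 28426 for Fra-1hep RNA and 38638 to 58064 for wild-type RNA. These did not overlap either, with the same limit of 1 wild-type pool. Again, how many of all probes show no overlap was not counted. As for Cyp8b1, mice 2 and 3 were lowest.

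Akr1d1 (NM_145364, probe A_55_P2147136), the reductase that gives bile acids their bent ring junction, had ratios of 0.60, 0.06, 0.21, 0.48 and 0.34 in mice 1 to 5 and 0.19 in the Fra-1hep pool. All 6 arrays were above 0. The fitted ratio of 0.29 (SE 0.09, 95% interval 0.09 to 0.49) did not pass after adjustment (adjusted p = 0.0752). It did pass with median centring in place of loess (0.41, adjusted p = 0.0185) and on the mouse arrays alone (0.39, adjusted p = 0.00943).

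Of the peroxisomal enzymes Acox2 rose, and Amacr and Baat did not pass. Acox2 (NM_053115, probe A_66_P138319), the branched-chain acyl-CoA oxidase of bile acid intermediates, had ratios of 0.50 in mouse 1, 0.23 in mouse 2, 0.17 in mouse 3, 0.43 in mouse 4 and 0.22 in mouse 5, with 0.28 in the Fra-1hep pool. Mice 1 and 4 were highest, and the mean was 0.34 ± 0.15 (SD, n = 4). The fit gave 0.31 (SE 0.08, adjusted p = 0.0357). The processed signals of 18103 to 24394 for Fra-1hep RNA and 15612 to 20672 for wild-type RNA overlapped between arrays, although the Fra-1hep channel was brighter within each array. The rise was near the threshold and ended without mouse 1 (adjusted p = 0.0504) or without mouse 4 (adjusted p = 0.0668).

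Amacr (NM_008537, probe A_51_P118885), the racemase that prepares side chains for oxidation, had ratios of 0.15, -0.21, -0.17, -0.14 and -0.24 in mice 1 to 5 and 0.05 in the Fra-1hep pool. This probe was also spotted 10 times, and the spots of one array had an SD of 0.03 to 0.07. The fitted ratio was -0.03 (SE 0.08, 95% interval -0.22 to 0.16, adjusted p = 0.879), and it was 0.14 with median centring, where it did not pass either. Baat (NM_007519, probe A_52_P43150), the conjugating enzyme, had ratios of 0.24, -0.16, -0.10, -0.01 and -0.05 in mice 1 to 5 and 0.02 in the pool. Its fitted ratio was 0.02 (SE 0.08, 95% interval -0.16 to 0.19, adjusted p = 0.934). Mouse 1 was highest for all 3 of these genes. For Amacr and Baat the interval leaves out changes as large as those of Cyp8b1, Cyp7b1 and Hsd3b7, with the same errors not counted as for Cyp7a1.

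The calls depended on the signals used more than the ratios did. With the scanner's own processed signals in place of the background-corrected and loess-normalised ones, the ratios were -0.92 for Cyp8b1, -0.78 for Cyp7b1, -0.74 for Hsd3b7 and 0.30 for Acox2. By limma 0 of the 10 enzymes passed there, and 4 of them (Cyp8b1, Cyp7b1, Hsd3b7 and Acox2) had an unadjusted p under 0.05 (adjusted p = 0.0828 for Cyp8b1, 0.121 for Cyp7b1, 0.0537 for Hsd3b7 and 0.138 for Acox2), and 1625 probes passed in all, against 3480. With an intensity trend and robust variance, the ratios were the same and Cyp8b1 (adjusted p = 0.0897) and Cyp7b1 (adjusted p = 0.15) did not pass. On the slide that held mice 3 and 4 and the pool, the ratios were -1.01 for Cyp8b1, -0.93 for Cyp7b1, -0.76 for Hsd3b7 and 0.29 for Acox2, of which Acox2 did not pass (adjusted p = 0.0583).

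**Figure D3:**
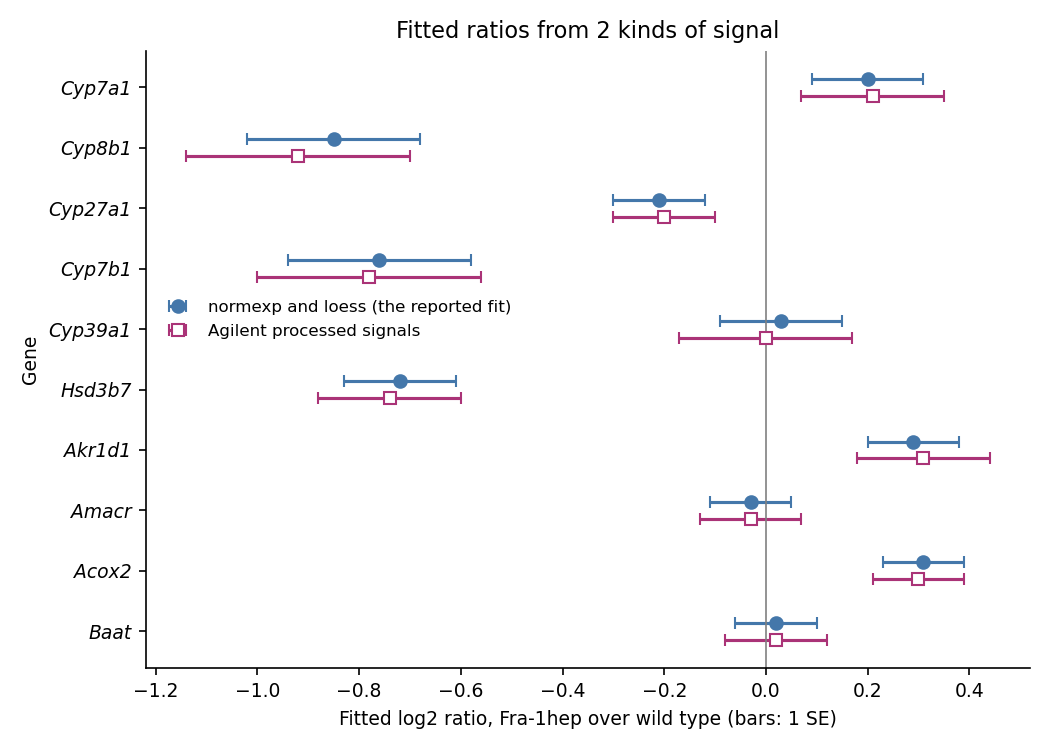
Fitted log2 ratio of Fra-1hep over wild type (horizontal axis, bars 1 SE) for the 10 enzymes, from the background-corrected and loess-normalised signals (filled circles) and from Agilent processed signals (open squares). The ratios of each gene lie within 0.07 of each other, and the bars of Cyp8b1 and Cyp7b1 are wider with the processed signals (0.22 for each) than with the others (0.17 and 0.18).

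Promoters in the RefSeq table (GRCm38.p6, 250 bases before to 50 after the gene start) were present for 5 of the 10 genes: Cyp8b1, Cyp27a1, Hsd3b7, Akr1d1 and Acox2. They were searched on both strands for the AP-1 motif TGANTCA, the cyclic-AMP response element TGACGTCA and the extended nuclear receptor half-site TCAAGGTCA, which Nr5a2-type receptors bind. The first is the sequence class bound by dimers that contain Fra-1. Of 32851 promoters of this length in the table, 7.81% held the AP-1 motif, 1.79% the response element and 0.423% the half-site. The windows of Cyp8b1 and Hsd3b7, shown because both genes fell, held none of the 3, nor did those of Cyp27a1 and Akr1d1. Acox2, shown because it rose, has 2 starts in the table, and its window at the more downstream start holds the AP-1 motif 2 times, at positions -191 and 20 from that start (the first base of the gene is 1). The first of these also lies at -11 from the other start. Capitals mark the motif, all sequences run 5′ to 3′ along the gene, and a match is a description of letters, not of binding.
Cyp8b1, chr9:121916256-121916555, minus strand: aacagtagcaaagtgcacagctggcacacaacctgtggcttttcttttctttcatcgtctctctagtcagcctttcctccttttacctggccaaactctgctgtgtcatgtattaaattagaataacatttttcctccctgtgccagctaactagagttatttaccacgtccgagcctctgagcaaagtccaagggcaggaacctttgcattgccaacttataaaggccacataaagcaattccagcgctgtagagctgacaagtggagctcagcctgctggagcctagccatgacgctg
Hsd3b7, chr7:127800359-127800658, plus strand: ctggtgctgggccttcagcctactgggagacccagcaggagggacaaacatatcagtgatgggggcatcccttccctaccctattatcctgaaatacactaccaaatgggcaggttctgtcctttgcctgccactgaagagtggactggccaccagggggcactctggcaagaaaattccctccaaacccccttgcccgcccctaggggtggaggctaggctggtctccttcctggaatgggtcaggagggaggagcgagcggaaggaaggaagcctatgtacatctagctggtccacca
Acox2, chr14:8258790-8259089, minus strand: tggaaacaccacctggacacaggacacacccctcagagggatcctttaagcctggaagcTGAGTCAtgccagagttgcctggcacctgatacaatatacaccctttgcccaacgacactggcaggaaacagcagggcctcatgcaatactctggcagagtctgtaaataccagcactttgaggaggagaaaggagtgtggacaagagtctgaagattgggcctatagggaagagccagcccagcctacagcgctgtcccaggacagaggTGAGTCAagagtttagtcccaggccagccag

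Cyp8b1 had the largest SD between the 5 mouse arrays of the 10 enzymes (0.50). Among 175 other genes with an SD of at least 0.50, the 5 whose ratios ran most like it over the 6 arrays were Mup6 (Pearson r 0.992), Slc22a7 (0.971), Glul (0.965), Sult2a8 (0.935) and Dio1 (0.931). These values are descriptive, since all arrays share the wild-type pool and mice 2 and 3 are 1 sample. Mup6, of the major urinary protein family whose near-identical copies a probe may not tell apart, had ratios of -1.43, -3.00, -2.95, -1.91 and -1.67 in mice 1 to 5 and -1.85 in the Fra-1hep pool. Glul, the glutamine synthetase of hepatocytes around the central vein, had -0.25, -1.69, -1.56, -0.70 and -0.55 in mice 1 to 5 and -0.92 in the pool. In each of these genes mice 2 and 3 were lowest and mouse 1 highest, as in Cyp8b1. They were chosen for likeness to Cyp8b1 on these arrays, so the shared order follows from the choice.

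Further genes that act in bile acid synthesis mostly did not pass. Of 18 listed, 15 were tested, of which 2 rose, 1 fell and 12 did not pass, beside 7.83% higher and 8.23% lower over 13955 genes with a symbol. The list had a median ratio of -0.05, against 0.00 over all those genes. Fdx1 (0.51, SE 0.09, adjusted p = 0.0114) and Fdxr (0.29, SE 0.07, adjusted p = 0.0347), which pass electrons to mitochondrial P450 enzymes such as Cyp27a1, both rose. Hsd17b10, a mitochondrial dehydrogenase, fell (-0.40, SE 0.09, adjusted p = 0.0243). Slc27a5, which activates bile acids for conjugation by Baat, had a ratio of -0.05 (adjusted p = 0.84), and Cyp2c70, which makes muricholic acids in mice, one of -0.08 (adjusted p = 0.832). Without mouse 1 the list had 6 calls, and with processed signals 0.

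Among bile acid transporters, 16 were listed and 14 tested, with 1 higher, 5 lower and 8 that did not pass, at a median ratio of -0.13. The shares over all genes with a symbol were 7.83% higher and 8.23% lower, and the difference between the directions was not tested. Abcb11, the pump that exports bile salts into bile, had ratios of -0.72, -1.12, -1.11, -0.94 and -0.57 in mice 1 to 5 and -0.62 in the Fra-1hep pool, and was 1.65-fold lower (-0.73, SE 0.10, adjusted p = 0.00311). The uptake carrier Slco1a1 fell most (-2.73, SE 0.32, adjusted p = 0.00164). The sterol exporter subunits Abcg5 (-0.51, adjusted p = 0.00532) and Abcg8 (-0.41, adjusted p = 0.0329) and the basolateral exporter Abcc3 (-0.47, adjusted p = 0.00808) were also lower. Slc10a2, the sodium-dependent bile acid carrier of ileum and bile ducts, rose (0.92, SE 0.12, adjusted p = 0.00296). The main hepatocyte carrier Slc10a1 did not pass (0.17, adjusted p = 0.404), with 0.57 to 1.31 in the 5 mice against -0.58 in the Fra-1hep pool, and a further probe gave -0.30 (adjusted p = 0.146).

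**Figure D4:**
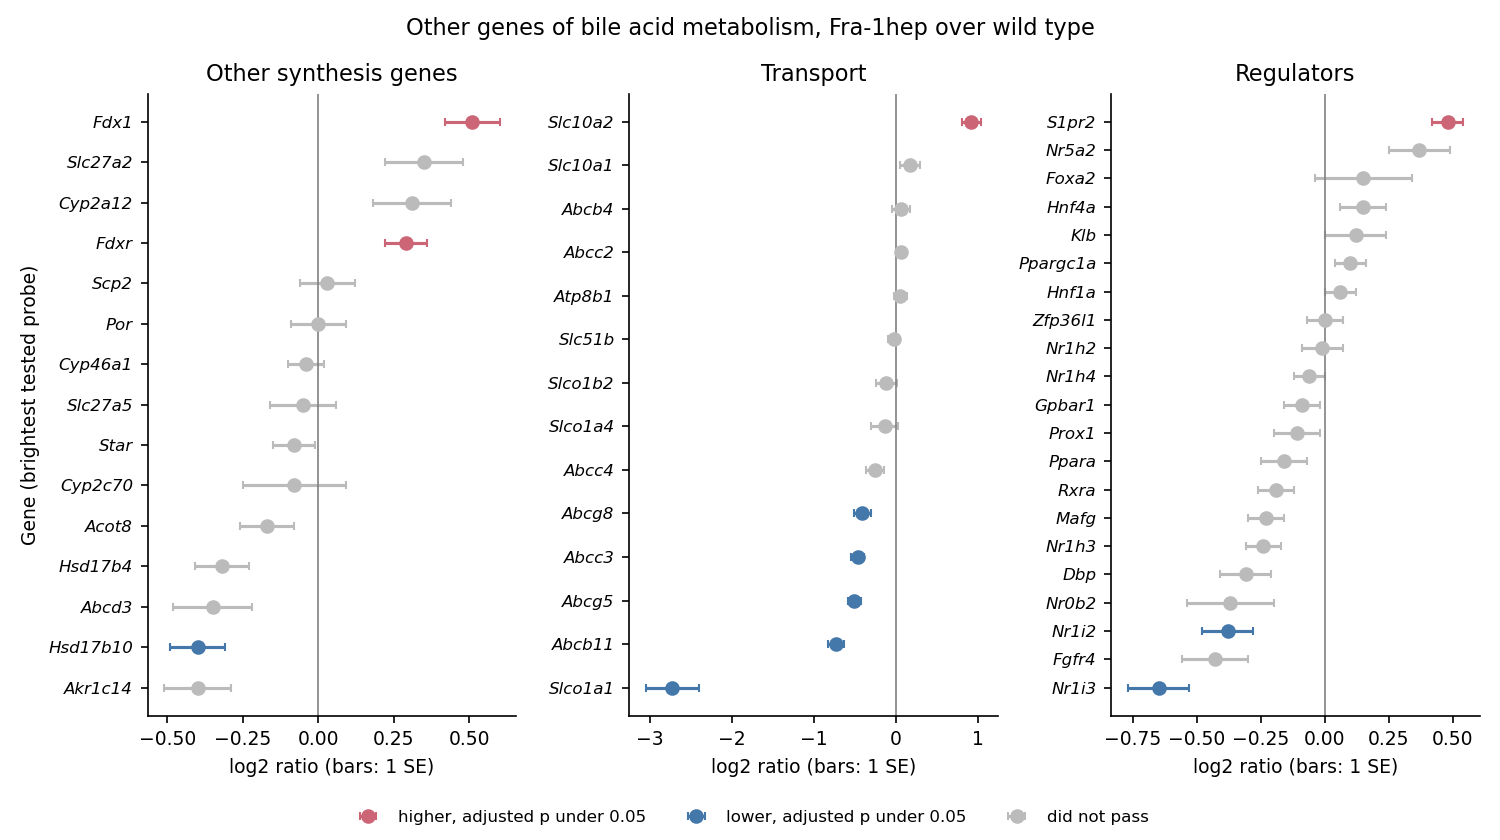
Fitted log2 ratio of Fra-1hep over wild type (horizontal axis, bars 1 SE) for tested genes of 3 lists, each by its brightest probe, coloured by whether the adjusted p was under 0.05. The horizontal scales differ between panels: Slco1a1 at -2.73 stands apart among transporters, and most synthesis genes and regulators lie within 0.5 of 0.

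Of 23 regulators of the pathway 21 were tested, with 1 higher, 2 lower and 18 that did not pass, at a median ratio of -0.09. That count lies near the shares over all genes (7.83% higher and 8.23% lower) and is no result about regulators. Further probes passed for 2 genes whose brightest probe did not: Mafg gave -0.26 on 2 further probes (adjusted p = 0.0236 and 0.0415) against -0.23 on the brightest (adjusted p = 0.0728). Nr1h3, the sterol receptor LXR alpha, gave -0.29 on a further probe (adjusted p = 0.02) and -0.24 on the brightest (adjusted p = 0.0663). The xenobiotic receptors Nr1i3 (CAR, -0.65, SE 0.12, adjusted p = 0.0125) and Nr1i2 (PXR, -0.38, SE 0.10, adjusted p = 0.0499) fell, and the bile acid-responsive receptor S1pr2 rose (0.48, SE 0.06, adjusted p = 0.00277). FXR itself (Nr1h4) had a ratio of -0.06 (adjusted p = 0.559). Its target SHP (Nr0b2) had 0.19, -0.46, -0.19, -0.85 and 0.04 in mice 1 to 5 and -0.50 in the pool, a fitted -0.37 that did not pass (adjusted p = 0.215). Mice lay on both sides of 0 for SHP. LRH-1 (Nr5a2), which activates Cyp7a1 and Cyp8b1, gave 0.37 on its brightest probe (adjusted p = 0.0985) and -0.09 on a further one (adjusted p = 0.464). The FGF receptor Fgfr4, through which the gut signals to repress synthesis, had a ratio of -0.43 (adjusted p = 0.0708). The call of Nr1i2 lay at the threshold. The list had 5 calls without mouse 1, 2 without mouse 2 or without mouse 3, 2 with an offset of 16 and 1 with processed signals.

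Other groups of genes moved in the same samples, and their part in the enzyme values was not tested. In bulk liver RNA, fewer cells of a type and less RNA per cell cannot be told apart. The counts of the lists that follow stand beside 7.83% higher and 8.23% lower over all 13955 genes with a symbol. Of 13 hepatocyte markers tested 3 fell and 1 rose, with a median ratio of 0.00 and array medians of 0.07 to 0.31 in the mice and -0.22 in the pool. Asgr2 (-0.36) and Apoa1 (-0.34) were below 0 in every mouse and in the pool. The fall of Alb (-0.65) rested largely on the pool, with -0.46 to 0.07 in the mice and -1.08 in the pool. Fgb rose (0.88), with 0.89 to 2.01 in the mice and 0.13 in the pool. All 13 were well above background in both channels of all 6 arrays. Fga did not pass on its brightest probe (0.12) but rose on a further one (0.41, adjusted p = 0.0215). Of 12 genes enriched around the central vein, where Cyp7a1 is known to be strongest in mouse liver, 3 fell, namely Slc1a2 (-0.86), Glul (-0.85) and Oat (-0.41), and 9 did not pass. Of 12 periportal genes 5 rose and 1 fell, with Sdsl (1.41), Pck1 (1.19) and Sds (0.90) highest and Hsd17b13 at -0.51 on 1 of its 2 probes. Of 14 male-biased liver genes 7 fell and 2 rose, a list with a median of -0.30, and Cyp7b1 is known to be higher in males than in females in mouse liver. Slco1a1 belongs to this list too. Mup20 of the same list did not pass on its brightest probe (0.03) but fell on a further one (-0.83, adjusted p = 0.00265). Of 14 female-biased genes 5 were tested, of which 3 fell and 1 rose.

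Of 17 clock genes 2 rose and 15 did not pass, a count near those shares. Those that rose, both near the threshold, were Hlf (0.34, adjusted p = 0.0489) and Cry2 (0.26, adjusted p = 0.0499). Dbp, a daily activator of Cyp7a1, had a ratio of -0.31 that did not pass (adjusted p = 0.0912). Peroxisome biogenesis genes, relevant to Amacr, Acox2 and Baat, fell in 5 of 16 cases, with 11 that did not pass, led by Pex11a (-0.88, adjusted p = 0.00481). Macrophages also express Cyp27a1, and 11 of 13 macrophage markers fell (median -0.56, array medians -0.81 to -0.35 in the mice and -0.48 in the pool). Neutrophil markers rose in 9 of 11 cases (median 2.19, array medians 0.83 to 2.96 in the mice and 2.5 in the pool). One of them, Mmp8, was above background for Fra-1hep RNA on 5 of 6 arrays and for wild-type RNA on 1, and was tested only because of the first. Without it 8 of 10 rose, at a median of 2.29. Of 10 cholangiocyte markers 4 rose and 1 fell, at a median of 0.20, and of 12 endothelial markers 1 rose and 9 fell, at -0.44. The endothelial marker Kdr did not pass on its brightest probe (-0.18) but fell on a further one (-0.56, adjusted p = 0.00525). Stellate cell markers had 1 higher and 1 lower of 12.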

How the data were processed

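The 6 Agilent arrays each compared liver RNA in 2 colours (100 ng labelled, RNA integrity above 7.8, per the labels), and the authors extracted images with Agilent Feature Extraction 10.7 (per the submitters' processing notes, with release 10.7.3.1 in the headers). The authors' scanner files contain, per the file headers, median spot and background intensity with no normalization, a processed signal (background-subtracted, detrended, dye-normalised), its log10 ratio and flags; 0 spots were saturated. The series table deposited by the authors holds log2 ratios of processed signal, is not centred (column medians -0.18 to 0.06) and served as an alternative. By array it matched the turned scanner ratios with a median difference of at most 4.33e-07 and a correlation of 0.9679 to 0.9987, so some probes differed. Its scale and direction are unstated by the authors and were set by that match.

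From median signals, background was corrected by normexp (offset 50) and ratios normalised by loess in limma 3.58.1 (R 4.3.3), with control and outlier spots (190 to 301 per array) at weight 0, and spots of a probe averaged without outlier spots. Ratios of dim probes are drawn towards 0 by the offset. Accessions were matched to GRCm38.p6 RefSeq names, giving 1 symbol to 26056 of 55681 probes; the arrays were designed on an earlier build, so no probe positions are given. Testing required a signal well above background for Fra-1hep RNA on 3 or more of 5 mouse arrays, or for wild-type RNA on 3 or more of 6 arrays, which kept 30110 probes. Limma (lmFit, eBayes) fitted genotype and a dye constant to 4 mouse samples and the dye-swapped array (3 residual and 5.15 prior degrees of freedom), 2-sided, with Benjamini-Hochberg adjustment over all tested probes; this array weighs as much as all mice together, and its own error and that of the 1 wild-type pool are not estimated. The fit was also run on data simulated from its own model with independent errors. Such data cannot show the effect of the errors that are not estimated. Other genes are given by their brightest probe, up to 3 per direction per list plus those needed to show what did not pass. Abcc3, Abcg8, Mafg, Nr1h3, Mmp8, Fga, Mup20 and Kdr were named after their values were seen. In the synthesis list 1 alias and in the clock list 1 (Stard1, Bmal1) repeat a gene. The 10 members, the 16 lists and the tests were chosen with earlier results of these data known. Alternatives covered signal, offset, centring, filter, dye term, variance prior, slide, separate mouse arrays, brightest probe and each mouse left out. Mice 2 and 3 were never left out together. Figures were drawn with matplotlib 3.10.9.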

Additional observations from a re-analysis of the deposited data

How the results depend on the processing

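With Agilent processed signals 1625 probes changed (816 higher, 809 lower), with the authors' deposited values 1624 (817 and 807), with no dye term 5898 (3030 and 2868), and without the dye-swapped array 7585 (4246 and 3339). Median centring gave 2936 higher and 1016 lower, so that 74.3% of calls were higher, against 47.8% with loess. Of the 10 enzymes 0 passed with processed signals or the deposited table, and with an intensity trend and robust variance 2 passed, of which 1 lower. No setting turned the direction of Cyp8b1, Cyp7b1, Hsd3b7 or Acox2 in the 17 alternatives run; Acox2 also missed the threshold with an offset of 16 (adjusted p = 0.0623). Cyp39a1 turned to -0.07 with no dye term and -0.14 without the dye-swapped array, Amacr to 0.14 with median centring and Baat to -0.02 within the slide of the dye-swapped array, none of them passing. Cyp27a1 passed at -0.30 with no dye term (adjusted p = 0.0253), as did Akr1d1 at 0.35 (adjusted p = 0.00934).

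Of the further synthesis genes, main count 3, 0 passed with processed signals or the deposited table, 6 with no dye term, 8 without the dye-swapped array, and 5 with 5 separate mouse arrays, with the slide as a random block or within the slide. Of the regulators, main count 3, the counts were 1, 1, 8 and 11 under the first 4 of these settings and 7 within the slide. Leaving out each mouse gave 2913 to 3304 probes, 1406 to 1578 higher and 1507 to 1764 lower, 3 to 4 enzymes (2 to 3 lower), 2 to 6 synthesis genes, 2 to 5 regulators and 5 to 6 transporters, the highest synthesis and regulator counts being without mouse 1. Leaving out mouse 2 kept mouse 3 and the reverse, so the sample they form was never removed. That sample was the lowest for Cyp8b1 and Hsd3b7, and their calls were not tested without it. Leaving out each mouse, Cyp39a1 ran from -0.01 to 0.09 and Baat from -0.02 to 0.03. No paired analysis was possible because the mouse arrays and the array of pools share fewer than 2 replicate numbers; each ratio already sets both RNAs against each other within an array. With 1 wild-type pool, spread between wild-type mice is unknown. All 10 probes were above background, although the offset may still draw the ratios of the dimmer ones towards 0.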
